A study of Mus musculus with 24 samples.

Results

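Diabetic mice that weighed less were set against diabetic mice that weighed more, within 1 microarray series of mouse left ventricle. The series holds 24 male mice, and 12 of them were made diabetic with 5 daily doses of 55 mg per kg streptozotocin (STZ), which poisons the beta cells of the pancreas. The 12 STZ mice were divided by the body weight that the labels give at 4 weeks: 6 mice below 25 are called lighter STZ mice, and 6 mice at 25 or above are called heavier STZ mice. The labels give no unit for this weight. The lighter STZ mice were 4 mG4H mice, which carry an inducible transgene for the glucose transporter GLUT4 expressed in cardiomyocytes, and 2 CON mice, the controls of that transgene. The heavier STZ mice were 2 mG4H and 4 CON mice. The other 12 mice, 6 CON and 6 mG4H, received citrate buffer (VEH), and both classes were also set against them. In the design text the mice were diabetic for 2 weeks before the transgene was induced for 2 more weeks, and ventricles were taken between 6 and 7 AM. Each group is said to have at least 1 sibling pair with another group, without naming the mice, and the promoter that drives the transgene is not named in the labels.

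STZ kills the cells that make insulin, so fat and muscle lose their main signal to take up glucose and to hold protein, and body weight drops as fat and protein are used for fuel. Insulin loss is also known to raise circulating glucocorticoids and fatty acids. Glucocorticoids act through a nuclear receptor that switches on genes such as Fkbp5, Per1 and the metallothioneins, while fatty acids activate PPAR alpha, which switches on genes of fat use in heart muscle. The comparison asks which of these programmes in the ventricle went with the weight of mice under the same toxin.

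Body weight averaged 23.3 ± 1.46 in lighter STZ mice, 27 ± 0.909 in heavier STZ mice (SD, n = 6 each) and 29.1 ± 3.16 in VEH mice (SD, n = 12). The mouse just inside the boundary weighed 24.7, and the 3 mice just outside it weighed 26.2 each. The weights of VEH mice ran from 25.5 to 36.4, so the heavier STZ mice lay in the low part of the VEH range. Blood glucose did not separate the classes: it averaged 571 ± 47.1 in lighter and 584 ± 41.2 in heavier STZ mice (SD, n = 6 each), against 140 ± 14.4 in VEH mice (n = 12; no unit in the labels). Of the STZ mice, 4 lighter and 5 heavier ones read 600 or 601, and their readings cannot order them; whether this is the upper limit of the meter is not given in the labels. The difference in means was -13.3, and a two-sided exact permutation test over all splits of 6 against 6 mice gave p = 1, as did the 225 splits within genotype.

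Each ventricle gave 1 array. Array signal at the 75th percentile ran from 369.9 to 543.9 in lighter STZ, 371.8 to 583.2 in heavier STZ and 370.7 to 533.6 in VEH mice, and the share of gene spots well above background from 61.86 to 70.81%, 58.46 to 76.28% and 59.92 to 72.01%. The number of arrays limits the precision. Slide was unevenly spread: slide 1 held 1 lighter and 3 heavier STZ mice, slide 2 held 3 and 1, and slide 3 held 2 and 2. Among the 12 STZ arrays 44.7% of the variance fell on the first principal component, of which 94.2% lay between slides. The second took 20.3%, with 29.2% of it between weight classes, and 3 lighter mice stood apart on it: CON STZ 03, mG4H STZ 03 and mG4H STZ 05 scored -41.1, -48.9 and -84.2, against -0.9 or above for the 9 other arrays. For the main results, values without these 3 mice are also given. The lighter mice then left, CON STZ 01, mG4H STZ 01 and mG4H STZ 02, were all on slide 2. Slide 2 held only 1 of the heavier mice, so values without the 3 mice that stood apart are mixed with slide. Values within slide 2 rest on the same lighter mice. The ventricle label was checked with 12 cardiomyocyte markers, whose summed signal relative to the VEH mean was 0.817 to 1.13 in lighter STZ, 0.868 to 1.02 in heavier STZ and 0.856 to 1.18 in VEH mice. The array probe for Slc2a4, the gene of GLUT4, read 5.66 to 6.94 in mG4H STZ mice and 5.60 to 6.42 in CON STZ mice, so it did not separate the genotypes; whether the transgene's transcript holds the probe sequence was not tested. Levels throughout are log2 signal over the array's 75th percentile, so 0 is the 75th percentile of that array.

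No single gene passed the test between the ventricles of lighter and heavier STZ mice. With genotype in the model, limma called 0 of 27043 genes (0%) at an adjusted p under 0.05, and the smallest adjusted p was 0.7. At an unadjusted p under 0.05 there were 1642 genes (6.07%), 801 higher and 841 lower in lighter mice. With slide as a block the count called was again 0, with 5663 genes (20.9%) at an unadjusted p under 0.05 and a smallest adjusted p of 0.107. Leaving out single mice moved the count called to 3758 without CON STZ 02 and to 6 without mG4H STZ 02. CON STZ 02 was the only heavier mouse on slide 2. Without it the classes met only on slides 1 and 3, where the lighter mice are the 3 that stood apart. Levels of the classes did not overlap for 84 genes (0.311%). A fit added after seeing the data, of all 24 arrays with slide as a block, called 1205 genes (4.46%), 570 higher and 635 lower. That count ran from 0 to 3601 when single mice were left out: it was 0 without CON STZ 05 or without mG4H STZ 05, 3601 without mG4H STZ 02, and 2 without the 3 mice that stood apart. The per-gene values that follow are therefore differences that did not pass the test over the 12 mice.

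The genes of smallest p that were higher in lighter mice included carriers, channels and signalling peptides. Slc20a1, a phosphate transporter, read 2.95, 3.0 and 3.25 (lowest, median, highest) in lighter STZ mice, 2.67, 2.77 and 2.83 in heavier STZ mice and 2.45, 2.64 and 2.82 in VEH mice. All 6 lighter mice lay above all 6 heavier and all 12 VEH mice, with a log2 difference of 0.33 ± 0.09 (SE) between lighter and heavier mice and limma adjusted p = 0.7. Against VEH mice Slc20a1 rose by 0.45 in lighter mice (limma adjusted p = 0.000248) and differed by 0.12 in heavier mice (adjusted p = 0.6). Slc6a12, a carrier of the osmolyte betaine and of GABA, read -3.73, -2.46 and -0.64 in lighter, -5.09, -4.25 and -3.25 in heavier and -6.44, -4.35 and -3.25 in VEH mice. Its difference of 2.01 ± 0.56 between lighter and heavier mice had the largest size of the 12 and was 1.05 without the 3 mice that stood apart, and 4 of 6 lighter mice lay above every heavier mouse. Edn1, the vasoconstrictor peptide endothelin-1, differed by 0.61 ± 0.16, and Cd24a, a small surface glycoprotein, by 1.2 ± 0.31, with 5 of 6 lighter mice above every heavier one for each. Without the 3 mice the difference of Edn1 was 0.40 and that of Cd24a 1.06. Acaca, which makes malonyl-CoA for fat synthesis, was 0.44 ± 0.12 higher in lighter mice; it did not pass against VEH in lighter mice (-0.02, limma adjusted p = 0.909) and fell by 0.46 in heavier mice (adjusted p = 0.00653). The other 7, with differences from 0.47 to 0.93, were Nmral1, an NADPH-binding protein; Tac4, a tachykinin precursor; Ankrd45; Aqp4, a water channel; Tmem100; Tiam2, an activator of the GTPase Rac; and Bmp8a, a ligand of the BMP family. Tac4, at 0.93, was well above background in 6 lighter mice but in 1 of 6 heavier mice, so its difference is set against signal mostly not well above background. Bmp8a had 0.58, and 0.32 without the 3 mice. Limma's adjusted p between lighter and heavier mice was 0.7 for each of the 12.

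The genes of smallest p that were lower in lighter mice held receptors, channels, proteases and their inhibitors. Aqp8, a water channel, read -1.06, 0.70 and 1.51 in lighter STZ mice, 2.15, 2.39 and 2.61 in heavier STZ mice and 0.19, 1.40 and 2.16 in VEH mice. The classes of STZ mice did not overlap, 5 of 6 heavier mice lay above every VEH mouse, and the difference was -1.72 ± 0.39 (SE), with limma adjusted p = 0.7. Paqr7, a membrane progestin receptor, read -0.75, 0.22 and 0.83 in lighter, 0.90, 0.99 and 1.25 in heavier and 1.02, 1.32 and 1.70 in VEH mice. Every lighter mouse lay below every heavier and every VEH mouse; the difference between lighter and heavier mice was -1.0 ± 0.22, and -0.55 without the 3 mice that stood apart. Against VEH mice Paqr7 fell by 1.26 in lighter mice (limma adjusted p = 6.25e-05) and differed by -0.26 in heavier mice (adjusted p = 0.627). Il17re, a receptor subunit for interleukin-17 family cytokines, had the smallest unadjusted p of these 24 genes, 0.000264 by limma, with a difference of -1.10 ± 0.21. Dpp4, a surface peptidase, differed by -1.59 ± 0.40 with no overlap between lighter and heavier mice, and Retnla, a marker of alternatively activated macrophages, by -1.44 ± 0.35. Leaving out the 3 mice gave -0.81 for Dpp4 and -0.77 for Retnla. Nkain4, which binds the sodium pump, differed by -2.26 ± 0.47, and its lighter mice at -3.39 to -2.55 sat below 5 of 6 heavier mice. The other 6 were Prss12, a serine protease; Prelp, a matrix proteoglycan; Zfp879, a zinc finger protein; Trim45, of the TRIM ubiquitin ligase family; Kcnj14, a potassium channel; and Spink2, a protease inhibitor, at -0.48 to -1.13. Spink2 was well above background in 2 of 6 and Prelp in 4 of 6 lighter mice, and in all heavier mice; Prelp had -0.91, and -0.55 without the 3 mice.

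**Figure D1:**
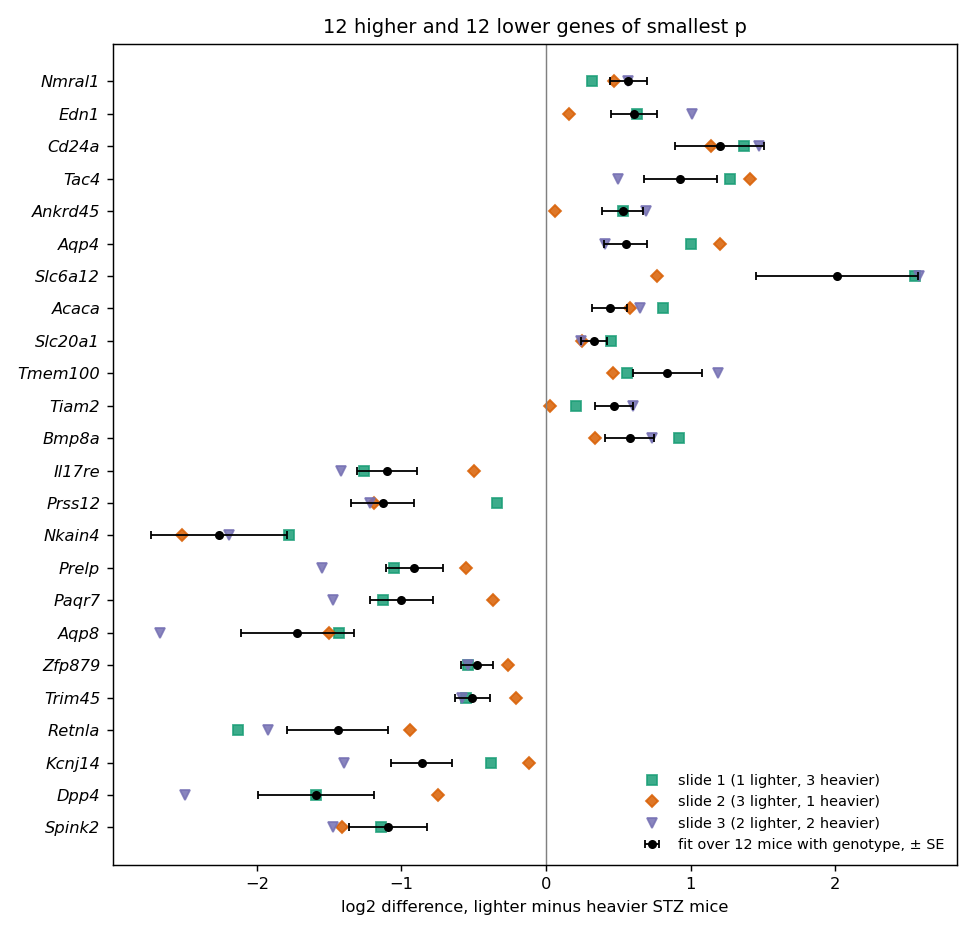
Log2 difference of lighter minus heavier STZ mice (x axis) for the 12 genes of smallest p in each direction (y axis). Black points with bars are the fit over 12 mice ± SE, and coloured marks are differences of means within slides 1, 2 and 3. The 24 genes were chosen for their p in this comparison, and each mark lies on the same side of 0 as its black point.

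The plot of these 24 genes by slide shows that sizes varied among slides while the side of 0 did not. For Slc6a12 the difference was smallest on slide 2, which held 3 of the lighter mice and 1 heavier mouse. Since the genes were picked for a small p in the same mice, their common direction across slides is a description.

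Seen against VEH mice, many more genes passed the test in lighter than in heavier STZ mice. In lighter STZ mice 4342 of 27043 genes (16.1%) passed, 1987 higher (7.35%) and 2355 lower (8.71%). In heavier STZ mice 565 genes (2.09%) passed, 193 higher (0.714%) and 372 lower (1.38%). Without the 3 mice that stood apart, the lighter mice had 1668 such genes, 1307 of them among the 4342 with the same direction. Leaving out CON STZ 03 alone left 1846 genes in lighter mice, and leaving out mG4H STZ 04 alone left 112 genes in heavier mice. Both comparisons share the 12 VEH mice, and a gene that passed in 1 class only is not thereby shown to differ between the classes; the direct comparison above is that test. Of the VEH mice, 2 were on a further slide with no STZ mouse. With slide as a block, 5845 genes passed in lighter and 735 in heavier mice.

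**Figure D2:**
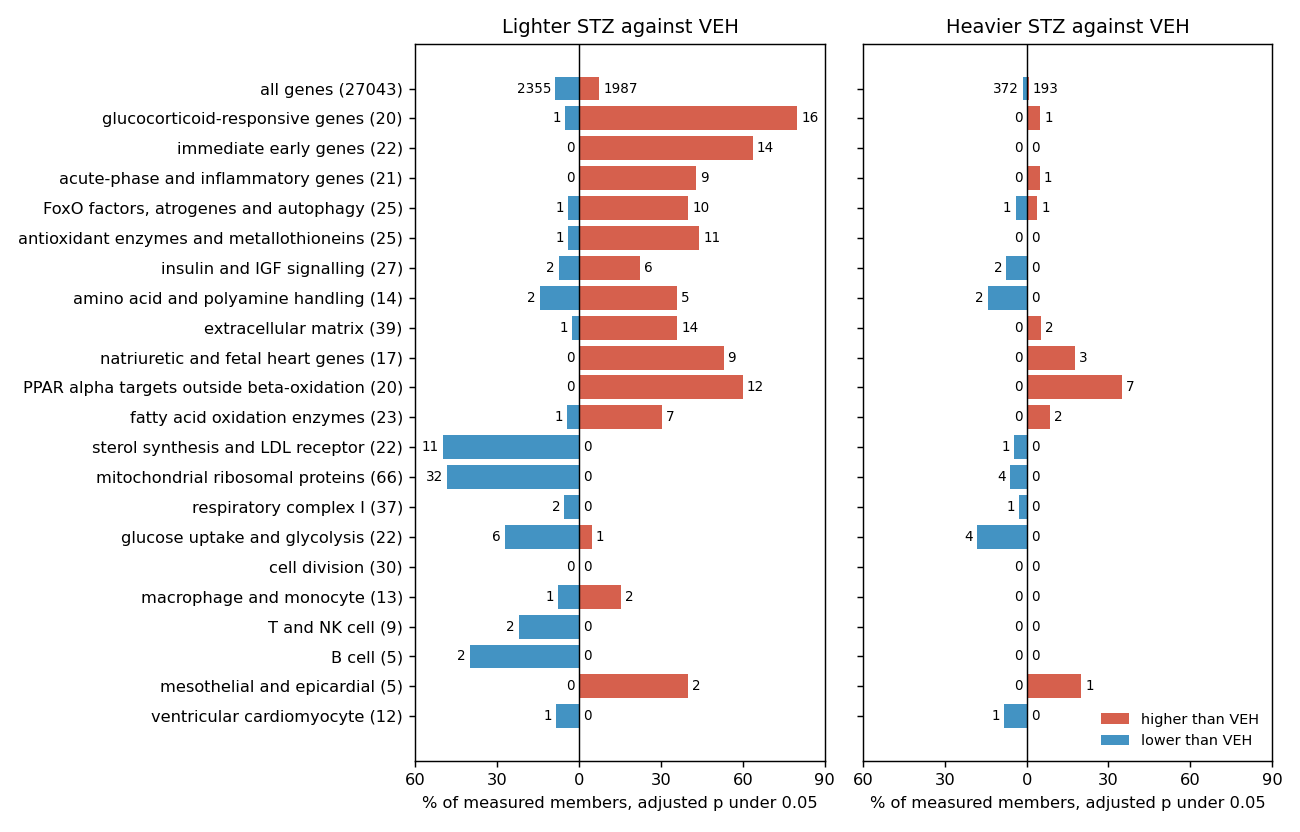
Share of each gene list's measured members (number in brackets) that were higher (right) or lower (left) than in VEH mice at adjusted p under 0.05, for lighter STZ mice (left panel) and heavier STZ mice (right panel); numbers at the bars are gene counts. Glucocorticoid-responsive genes reach 16 of 20 in lighter mice and 1 of 20 in heavier mice, while PPAR alpha targets reach 12 and 7 of 20. Both glucocorticoid counts include Mc2r, whose probe was kept through STZ mice alone.

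Glucocorticoid-responsive genes had the highest list median between the weight classes. Of 20 measured members, 16 were higher and 1 lower than in VEH mice among lighter STZ mice, against 1 higher and 0 lower among heavier STZ mice (for all genes, 7.35 and 8.71%, and 0.714 and 1.38%). Mc2r is 1 of the 16 and is the 1 higher member in heavier mice. Its probe was kept through STZ mice alone, so its place in both counts is a description. Between lighter and heavier mice 19 of 20 members had a positive difference and 8 were higher at an unadjusted limma p under 0.05. The median difference was 1.07, beside 0.09 over all genes, and 0 members passed after adjustment. In the added fit of 24 arrays with slide as a block, 10 of the 20 passed as higher. The median varied with the mice used. It was 0.19 without the 3 mice that stood apart, when 3 members were higher than in VEH mice. Within slides 1, 2 and 3 it was 1.90, -0.20 and 1.90. The lighter mice of slide 2 are also those left without the 3 mice. Few mice and slide thus cannot be told apart here.

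Fkbp5, a chaperone of the glucocorticoid receptor and one of its most used target genes, read 2.42, 4.47 and 5.87 in lighter STZ mice, 2.21, 2.64 and 3.68 in heavier STZ mice and 2.22, 2.54 and 3.03 in VEH mice. Mice mG4H STZ 05, CON STZ 03 and mG4H STZ 03 were highest at 5.87, 5.43 and 4.91, whereas mG4H STZ 02 at 2.42 lay within the VEH range. Fkbp5 rose by 1.92 in lighter mice against VEH mice (limma adjusted p = 0.00139) and differed by 0.16 in heavier mice (adjusted p = 1). Lighter minus heavier was 1.76 ± 0.55 (SE), a fold of 3.39 with limma adjusted p = 0.7, and 0.77 without the 3 mice that stood apart. Its probe lies at chr17:28536060-28536119 (mm9).

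Mc2r, the receptor for the pituitary hormone ACTH and the list member that passed in heavier mice too, read -5.53, -3.84 and -2.88 in lighter STZ mice, -6.16, -4.94 and -4.61 in heavier STZ mice and -7.43, -6.69 and -5.94 in VEH mice. It was well above background in 5 of 6 lighter, 4 of 6 heavier and 0 of 12 VEH mice. Its probe was thus kept through STZ mice alone, where it is high, so its comparison with VEH mice is a description. All 6 lighter and 5 of 6 heavier mice lay above every VEH mouse. Mc2r was at least 2.38-fold higher in lighter STZ than in VEH mice (limma adjusted p = 9.37e-06) and at least 1.03-fold higher in heavier STZ mice (adjusted p = 0.0115). For these bounds the VEH side was set, array by array, to the dimmest signal still marked as above background, or to the probe's own signal where that was higher. Lighter minus heavier was 1.58 ± 0.31, with limma adjusted p = 0.7, and 1.11 without the 3 mice.

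The metallothioneins Mt1 and Mt2 bind zinc and copper and respond both to glucocorticoids and, through the metal response element, to zinc. Mt2 read 2.75, 6.78 and 7.98 in lighter STZ mice, 3.08, 4.06 and 5.14 in heavier STZ mice and 1.97, 2.89 and 3.17 in VEH mice. Of the lighter mice 4 lay above every heavier mouse and 1, mG4H STZ 02, lay below every heavier mouse. Mt2 rose by 3.51 in lighter mice (limma adjusted p = 0.000475) and differed by 1.07 in heavier mice (adjusted p = 0.538), and lighter minus heavier was 2.44 ± 0.86 (adjusted p = 0.7), or 0.91 without the 3 mice. Mt1 rose by 1.45 in lighter mice (limma adjusted p = 0.00157) and differed by 0.29 in heavier mice (adjusted p = 0.957); leaving out the 3 mice, the value in lighter mice was 0.68 (adjusted p = 0.0648). For Mt2 it was then 2.04 (limma adjusted p = 0.00615). The probes lie at chr8:96697371-96697430 for Mt2 and chr8:96704165-96704224 for Mt1 (mm9). Their promoters are shown because both genes rose in lighter mice and share a known regulatory element. They are taken from RefSeq (GRCm38.p6), 5′ to 3′ on the plus strand from 250 bases before to 50 bases after the start. Capitals mark the metal response element core, searched on both strands as TGCGCNC and TGCACNC.
Mt2, chr8:94172368-94172667: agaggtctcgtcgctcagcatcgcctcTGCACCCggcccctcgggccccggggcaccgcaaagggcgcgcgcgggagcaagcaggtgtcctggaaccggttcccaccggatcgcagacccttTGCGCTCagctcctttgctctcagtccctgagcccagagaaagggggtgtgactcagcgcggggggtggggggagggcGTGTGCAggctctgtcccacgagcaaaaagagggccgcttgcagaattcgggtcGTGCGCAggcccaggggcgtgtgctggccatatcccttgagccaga
Mt1, chr8:94178839-94179138: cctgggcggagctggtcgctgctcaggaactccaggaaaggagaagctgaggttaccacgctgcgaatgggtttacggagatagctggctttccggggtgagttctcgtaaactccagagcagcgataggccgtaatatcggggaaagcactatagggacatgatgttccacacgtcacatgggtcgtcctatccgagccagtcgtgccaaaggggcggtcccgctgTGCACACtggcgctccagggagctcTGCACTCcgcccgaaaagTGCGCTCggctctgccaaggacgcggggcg
Mt2 holds 4 matches and Mt1 holds 3. Of all 32851 promoters of that length in the table, 25.7% hold at least 1 match, 1.97% hold 3 or more and 0.517% hold 4 or more. A match is a description of the letters, and binding was not measured.

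Other members of the list also rose in lighter mice. Cdkn1a, a cell cycle inhibitor, rose by 2.23 in lighter mice against VEH mice (limma adjusted p = 0.00162) and differed by 0.33 in heavier mice (adjusted p = 1). Zbtb16, a transcription factor, rose by 1.88 and Lcn2, the iron-carrier-binding lipocalin, by 1.84 in lighter mice (limma adjusted p = 0.00515 and 0.00655), against 0.30 and 0.15 in heavier mice (adjusted p = 1 each). The lower member was Nr3c1, the glucocorticoid receptor itself, which fell by 0.43 in lighter mice (limma adjusted p = 0.0144) and differed by -0.09 in heavier mice (adjusted p = 1). None of these 4 passed in lighter mice once the 3 mice were left out: Cdkn1a had 0.98, Zbtb16 0.91, Lcn2 0.46 and Nr3c1 -0.09 (limma adjusted p = 0.0508, 0.137, 0.426 and 0.642). Tsc22d3, another target of the receptor, did not pass in lighter mice, with 0.48 and limma adjusted p = 0.0886. Corticosterone levels are not given in the labels.

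**Figure D3:**
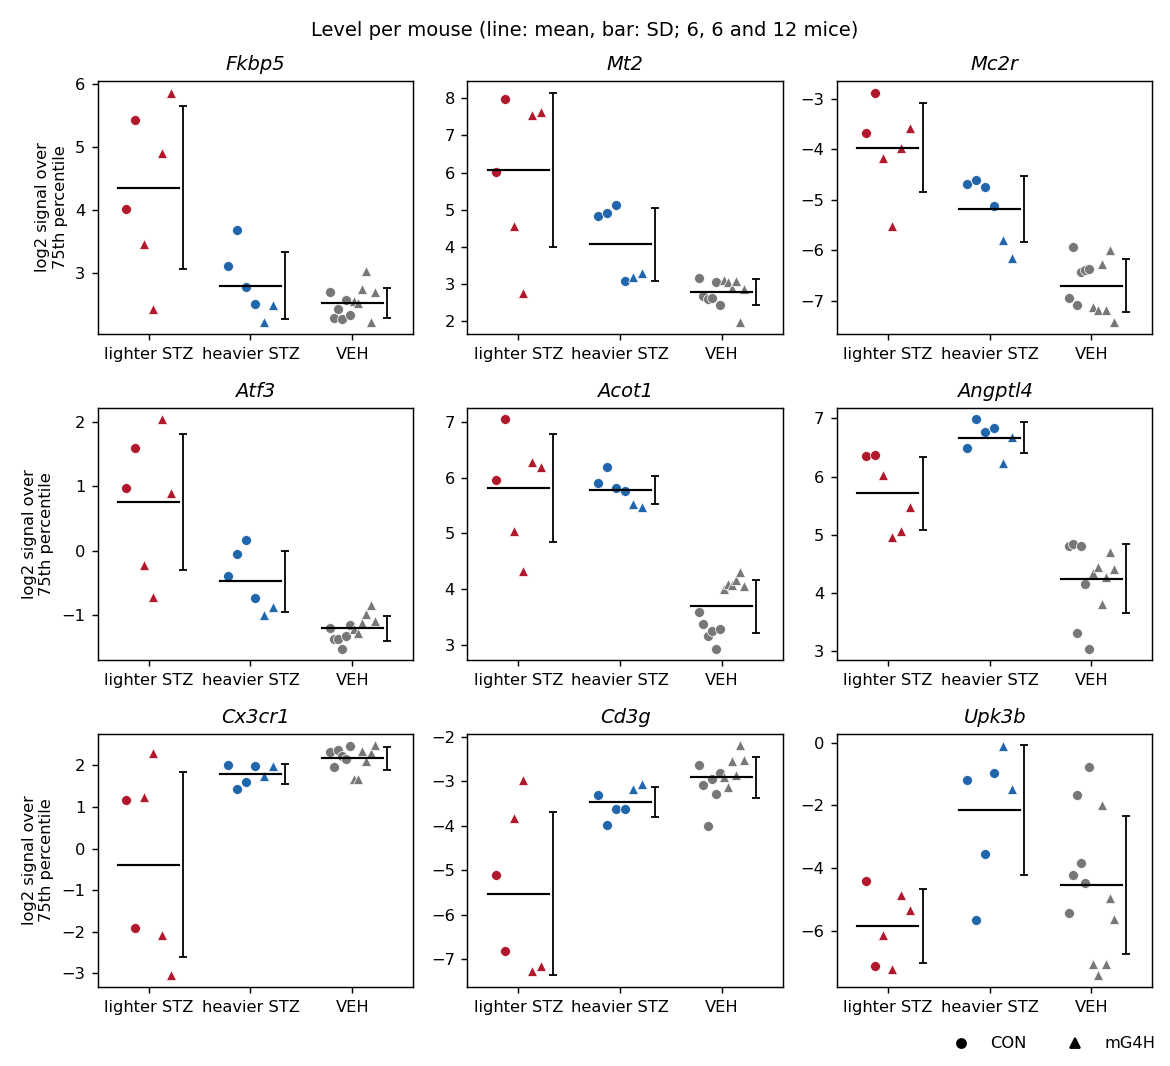
Level of 9 genes per mouse, as log2 signal over the 75th percentile (y axis), in lighter STZ, heavier STZ and VEH mice; circles are CON and triangles mG4H mice, lines are means and bars are SD. Fkbp5, Mt2 and Atf3 spread widely among lighter mice with the lowest lighter mouse near the VEH mice, Acot1 is raised in both STZ classes, and Cx3cr1 and Cd3g are far below the rest in 3 lighter mice.

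Immediate early genes, which encode transcription factors switched on within minutes of a stimulus, were higher than in VEH mice for most members in lighter STZ mice. Of 22 measured members, 14 were higher and 0 lower in lighter mice, against 0 and 0 in heavier mice. The shares over all genes were 7.35 and 8.71% in lighter and 0.714 and 1.38% in heavier mice. Members had a median difference from VEH mice of 0.68 in lighter and 0.27 in heavier mice. Without the 3 mice that stood apart, 8 were higher in lighter mice. Atf3, a stress-induced repressor, read -0.72, 0.94 and 2.05 in lighter, -1.0, -0.56 and 0.17 in heavier and -1.53, -1.21 and -0.84 in VEH mice. All 6 lighter and 4 of 6 heavier mice lay above every VEH mouse, and mG4H STZ 02 was the lowest lighter mouse. Atf3 rose by 2.10 in lighter mice (limma adjusted p = 0.000126) and differed by 0.62 in heavier mice (adjusted p = 0.383). Lighter minus heavier was 1.48 ± 0.43 with limma adjusted p = 0.7, and the list's median difference was 0.43, with 21 of 22 members positive; it was 0.14 without the 3 mice, and 0.56, 0.01 and 0.80 within slides 1, 2 and 3. Maff, a small Maf factor, rose by 1.82, Fos by 1.70 and Myc by 1.5 in lighter mice (limma adjusted p = 0.000415, 0.000604 and 0.000544), against 0.45, 0.67 and 0.77 in heavier mice (adjusted p = 0.705, 0.325 and 0.128).

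Acute-phase and inflammatory genes had a raised list median in both weight classes, and more members passed in lighter mice. The median difference from VEH mice was 0.91 in lighter and 0.55 in heavier mice (all genes, 0.09 and 0.00). Per mouse, the list median ran from 0.09 to 2.13 in lighter mice, and the highest VEH mouse had 0.24. The lighter mice mG4H STZ 02 and mG4H STZ 05 had 0.09 and 0.13. The heavier mice CON STZ 02 and CON STZ 04 had 0.93 and 0.77, and the lowest heavier mouse had 0.14. Of 21 measured members, 9 were higher and 0 lower than in VEH mice among lighter STZ mice, and 1 was higher among heavier STZ mice. For all genes, 7.35% were higher and 8.71% lower in lighter mice, and 0.714% and 1.38% in heavier mice. In lighter mice 10 members were higher when the 3 mice that stood apart were left out, beside 731 of all 27043 genes. Clec4d, a receptor of activated myeloid cells, read -3.20, -0.14 and 1.64 in lighter, -2.83, -2.18 and -1.26 in heavier and -3.83, -3.43 and -3.06 in VEH mice. The lighter mice spanned the whole range from VEH mice upward, whereas all heavier mice lay above the VEH mice. Clec4d rose by 3.07 in lighter mice (limma adjusted p = 0.000233) and differed by 1.15 in heavier mice (adjusted p = 0.249). Osmr, the oncostatin M receptor, rose by 0.91 and Serpina3n, a secreted protease inhibitor, by 2.82 in lighter mice (limma adjusted p = 0.000139 and 0.000743), against 0.32 and 1.16 in heavier mice (adjusted p = 0.241 and 0.312). The member that passed in heavier mice was Serpina3g, which rose by 1.04 there (limma adjusted p = 0.0301) and differed by 0.10 in lighter mice (adjusted p = 0.814). The median difference of the list between lighter and heavier mice was 0.45, and 0.48 without the 3 mice. Within slides 1, 2 and 3 it was 0.14, -0.10 and 0.54.

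Genes of insulin signalling, protein breakdown and antioxidant defence rose for some members in lighter mice. Over all genes 7.35% were higher and 8.71% lower in lighter mice, and 0.714% and 1.38% in heavier mice. The 1987 higher calls in lighter mice became 731 without the 3 mice that stood apart. Of 25 FoxO factors, atrogenes and autophagy genes, 10 were higher and 1 lower in lighter STZ mice, against 1 and 1 in heavier STZ mice. Among lighter mice 1 was higher and 1 lower once the 3 mice were left out. The muscle ubiquitin ligases Fbxo32 and Trim63, best known from muscle wasting, had 1.05 and 0.59 in lighter mice and 0.16 and 0.00 in heavier mice, and neither passed in lighter mice (limma adjusted p = 0.0852 and 0.0507). Irs2, the insulin receptor substrate that FoxO factors switch on, rose by 1.70 and Igf1r, the IGF1 receptor, by 1.18 in lighter mice (limma adjusted p = 0.00205 and 0.000502), against 0.38 and 0.32 in heavier mice (adjusted p = 0.926 and 0.663). With the 3 mice left out, lighter mice had 0.60 for Irs2 and 0.61 for Igf1r (limma adjusted p = 0.0255 and 0.00873). Foxo6 went the other way in both classes: it fell by 2.03 in lighter and by 1.31 in heavier mice (limma adjusted p = 5.46e-05 and 0.00306). Of 27 insulin and IGF signalling genes, 6 were higher and 2 lower in lighter mice, against 0 and 2 in heavier mice, and 3 and 1 in lighter mice without the 3. Of 25 antioxidant enzymes and metallothioneins, 11 were higher and 1 lower in lighter mice, against 0 and 0 in heavier mice, and 6 and 1 in lighter mice without the 3. Srxn1, which repairs oxidised peroxiredoxins, rose by 0.71, and Hmox1, which breaks down haem, by 1.78 in lighter mice (limma adjusted p = 0.00063 and 0.00134), against 0.11 and 0.75 in heavier mice (adjusted p = 0.982 and 0.366). In lighter mice without the 3 they had 0.45 and 0.89 (limma adjusted p = 0.0151 and 0.00257). Mt1 and Mt2 belong to this list as well as to the glucocorticoid list.

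Some PPAR alpha targets rose in each weight class. Among all genes the higher share was 7.35% in lighter and 0.714% in heavier mice, and the lower share 8.71% and 1.38%. Of 20 PPAR alpha targets outside beta-oxidation, 12 were higher and 0 lower than in VEH mice among lighter STZ mice, and 7 and 0 among heavier STZ mice; 10 were higher in lighter mice without the 3 that stood apart. Acot1, a thioesterase that frees fatty acids from coenzyme A, read 4.33, 6.07 and 7.05 in lighter, 5.48, 5.78 and 6.19 in heavier and 2.93, 3.81 and 4.30 in VEH mice. All 12 STZ mice lay above all 12 VEH mice. Acot1 rose by 2.29 in lighter and by 2.02 in heavier mice (limma adjusted p = 1.28e-05 and 0.000202), and lighter minus heavier was 0.27 ± 0.36 (adjusted p = 0.788). Pdk4, which blocks pyruvate entry to the TCA cycle, rose by 1.53 in lighter and 1.42 in heavier mice (limma adjusted p = 0.000214 and 0.000999), and the lipid droplet protein Plin2 by 0.80 and 0.70. The list's median difference between lighter and heavier mice was 0.10, beside 0.09 over all genes, and -0.12 without the 3 mice. Pdk4 and Plin2 had 0.99 and 0.49 in lighter mice without the 3 (limma adjusted p = 0.00308 and 0.00263). Of 23 enzymes of fatty acid oxidation itself, 7 were higher and 1 lower in lighter mice, 2 and 0 in heavier mice, and 1 and 1 in lighter mice without the 3.

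Angptl4, an inhibitor of lipoprotein lipase and a PPAR target, was the member of the list with the smallest p between the classes, with the lighter mice lower. It read 4.97, 5.75 and 6.38 in lighter STZ mice, 6.24, 6.72 and 6.99 in heavier STZ mice and 3.04, 4.39 and 4.85 in VEH mice. Of the lighter mice 4 lay below every heavier mouse, and all STZ mice lay above all VEH mice. It rose by 1.63 in lighter and by 2.37 in heavier mice (limma adjusted p = 0.000399 and 0.000147). Lighter minus heavier was -0.73 ± 0.22 (limma adjusted p = 0.7), and -0.71 without the 3 mice.

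Heart muscle stress genes likewise moved in both classes. Nppa, the atrial natriuretic peptide gene, read 5.81, 6.90 and 9.01 in lighter, 6.10, 7.19 and 8.23 in heavier and 4.02, 5.02 and 5.57 in VEH mice, with no overlap between STZ and VEH mice. It rose by 2.37 in lighter and by 2.02 in heavier mice (limma adjusted p = 0.00069 and 0.00825). Myh7, the slow myosin heavy chain, rose by 1.87 and 1.84 (limma adjusted p = 0.000396 and 0.00128), and lighter minus heavier was 0.04 ± 0.34. Of 17 natriuretic and fetal heart genes, 9 were higher in lighter and 3 in heavier mice, 0 lower in either. Shares of all genes that were higher were 7.35% in lighter and 0.714% in heavier mice. Without the 3 mice that stood apart, 6 of the 17 were higher in lighter mice. The list's median difference from VEH mice was 0.36 in lighter and 0.40 in heavier mice. Beside this, the summed signal of 7 atrial cardiomyocyte markers relative to the VEH mean was 1.1 to 4.75 in lighter, 1.19 to 2.91 in heavier and 0.772 to 1.5 in VEH mice; its part in these values was not tested. Abat, which breaks down GABA, fell by 1.27 in lighter and by 1.29 in heavier mice (limma adjusted p = 0.000406 and 0.00104). Slc2a4 fell by 0.60 in heavier mice (limma adjusted p = 0.0111) and differed by -0.24 in lighter mice (adjusted p = 0.219), with lighter minus heavier at 0.36 ± 0.20 (adjusted p = 0.7).

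Sterol synthesis and mitochondrial translation genes were lower than in VEH mice for part of each list. The share of all genes that were lower was 8.71% in lighter and 1.38% in heavier mice, and of those higher 7.35% and 0.714%. Of 22 genes of sterol synthesis and LDL uptake, 11 were lower and 0 higher in lighter STZ mice, against 1 and 0 in heavier STZ mice, and 3 lower in lighter mice without the 3 that stood apart. Mvk, mevalonate kinase, fell by 0.55 in lighter and 0.47 in heavier mice (limma adjusted p = 0.000415 and 0.00431). Cyp51, a sterol demethylase, fell by 0.63 in lighter mice (limma adjusted p = 0.00227) and differed by -0.30 in heavier mice (adjusted p = 0.336); it was -0.49 in lighter mice without the 3 (adjusted p = 0.0836). Of 66 mitochondrial ribosomal protein genes, 32 were lower in lighter mice and 4 in heavier mice, with 0 higher in either, and 14 were lower in lighter mice without the 3. Their median difference from VEH mice was -0.22 in lighter and -0.20 in heavier mice, and the median between lighter and heavier mice was -0.02. Mrpl46 and Mrps12, both subunits of that ribosome, fell by 0.41 and 0.42 in lighter mice and by 0.27 and 0.29 in heavier mice (limma adjusted p = 0.00056, 0.000645, 0.037 and 0.0324).

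Matrix genes rose against VEH mice for part of the list in lighter mice, with and without the 3 mice that stood apart. The list's median difference from VEH mice was higher in heavier mice, at 0.36, than in lighter mice, at 0.09 (all genes, 0.00 and 0.09). It was 0.51 in lighter mice without the 3. Per mouse, the median ran from 0.13 to 0.62 in heavier and from -0.47 to 1.04 in lighter mice. Of all genes, 7.35% were higher and 8.71% lower in lighter mice, and 0.714% and 1.38% in heavier mice. Of 39 members, 14 were higher and 1 lower in lighter STZ mice and 2 and 0 in heavier STZ mice; without the 3 mice, 16 were higher and 0 lower in lighter mice. Lox, which crosslinks collagen, read -3.63, -0.66 and 0.40 in lighter, -3.61, -2.87 and -2.16 in heavier and -3.91, -3.66 and -3.42 in VEH mice. It rose by 2.62 in lighter mice (limma adjusted p = 0.000395) and differed by 0.65 in heavier mice (adjusted p = 0.705); leaving out the 3 mice gave 1.61 in lighter mice (adjusted p = 0.00149). Ctgf, a matricellular growth factor, rose in both, by 2.48 in lighter and 1.36 in heavier mice (limma adjusted p = 9.28e-05 and 0.025). The lower member was Col15a1, a basement membrane collagen, which fell by 1.62 in lighter mice (limma adjusted p = 0.0116) and was well above background in 3 of 6 lighter, 6 of 6 heavier and 12 of 12 VEH mice; without the 3 mice it had -0.23 (limma adjusted p = 0.703). The list's median difference between lighter and heavier mice was -0.13, against 0.12 without the 3 mice.

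Several leukocyte genes were low in part of the lighter mice. Cx3cr1, the fractalkine receptor of monocytes and resident macrophages, read -3.05, -0.37 and 2.30 in lighter STZ mice, 1.44, 1.87 and 2.02 in heavier STZ mice and 1.68, 2.26 and 2.48 in VEH mice. Its low values came from mG4H STZ 05 at -3.05, mG4H STZ 03 at -2.08 and CON STZ 03 at -1.92, while mG4H STZ 02 was at 2.30. It fell by 2.56 in lighter mice (limma adjusted p = 0.0059) and differed by -0.36 in heavier mice (adjusted p = 1). Without the 3 mice the value in lighter mice was -0.70 (limma adjusted p = 0.0645). Cd3g, a T cell receptor subunit, read -7.26, -5.97 and -2.96 in lighter, -3.98, -3.46 and -3.05 in heavier and -4.01, -2.87 and -2.19 in VEH mice. The same 3 mice were lowest, and CON STZ 01 at -5.11 was next. Cd3g was well above background in 3 of 6 lighter mice and in all others; it fell by 2.73 in lighter mice (limma adjusted p = 0.00127), and by 1.35 without the 3 mice (adjusted p = 0.00559). The B cell genes Cd79b and Ms4a1 fell by 1.57 and 1.5 in lighter mice (limma adjusted p = 0.00357 and 0.00982), against -0.35 and -0.40 in heavier mice (adjusted p = 0.956 and 0.95). Neither passed in lighter mice without the 3, at -0.65 and -0.99 (limma adjusted p = 0.112 and 0.141). In bulk tissue, fewer cells of a type and less RNA per cell cannot be told apart.

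Taken as whole lists, few leukocyte markers passed the test. For all genes, 7.35% were higher and 8.71% lower than in VEH mice among lighter mice, and 0.714% and 1.38% among heavier mice. With lists this short, the counts are set beside those shares as description only. Of 9 T and NK cell markers 2 were lower in lighter STZ mice and 0 in heavier STZ mice, and of 5 B cell markers 2 and 0; without the 3 mice, 2 T and NK cell and 0 B cell markers were lower in lighter mice. Of 13 macrophage and monocyte markers, 2 were higher and 1 lower in lighter mice and 0 in heavier mice: Cd163, a scavenger receptor of macrophages, rose by 1.23 in lighter mice (limma adjusted p = 0.00506), and had 0.70 without the 3 mice (adjusted p = 0.116). In lighter mice without the 3, 3 markers were higher and 0 lower. The median macrophage difference from VEH mice was 0.30 in lighter and 0.29 in heavier mice, and mG4H STZ 03, low for Cx3cr1, had a list median of 0.78 above the VEH mean. Of 5 measured neutrophil markers, 0 passed in lighter or heavier mice. Their median differences from VEH mice were 0.40 in lighter and -0.03 in heavier mice. Between lighter and heavier mice all 5 were positive, with a median of 0.70, and 0 had an unadjusted limma p under 0.05. That median was 0.44 without the 3 mice, and -0.01, 0.46 and 0.30 within slides 1, 2 and 3. The summed macrophage signal relative to the VEH mean was 0.968 to 1.33 in lighter, 1.07 to 1.47 in heavier and 0.888 to 1.08 in VEH mice, and the summed B cell signal 0.337 to 1.11, 0.562 to 0.978 and 0.566 to 1.26. The summed T and NK cell signal was 0.702 to 1.2 in lighter, 0.737 to 1.2 in heavier and 0.785 to 1.36 in VEH mice. Its medians were 0.924, 0.816 and 0.949, so by this sum the lighter mice were not below the heavier mice.

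Mesothelial genes had the lowest list median between the weight classes. Upk3b, a uroplakin of the mesothelium that covers the heart, read -7.23, -5.73 and -4.42 in lighter STZ mice, -5.67, -1.33 and -0.09 in heavier STZ mice and -7.43, -4.72 and -0.78 in VEH mice. It was well above background in 1 of 6 lighter, 5 of 6 heavier and 7 of 12 VEH mice, so VEH mice spanned both classes and the size of a difference between lighter and heavier mice rests on signal not well above background in 5 of 6 lighter mice. The heavier mouse that read -5.67 was CON STZ 04, below 3 of the lighter mice. The fitted value was -4.02 ± 0.94 (limma adjusted p = 0.7), and -3.98 without the 3 mice that stood apart. Upk3b passed the filter for signal mostly through heavier mice, where it is high, so this value is a description. Krt19, an epithelial keratin, differed by -1.39 ± 0.38 and Msln, mesothelin, by -2.51 ± 0.87, also with limma adjusted p = 0.7. The median over the 5 measured of 9 mesothelial and epicardial markers, those that passed the same filter, was -1.39. Within slides 1, 2 and 3 it was -0.57, -1.59 and -1.40. The summed signal of these 5 markers relative to the VEH mean was 1.01 to 1.41 in lighter, 1.21 to 1.93 in heavier and 0.798 to 1.66 in VEH mice. How much of the ventricle's surface layer each sample held is not recorded in the labels.

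**Figure D4:**
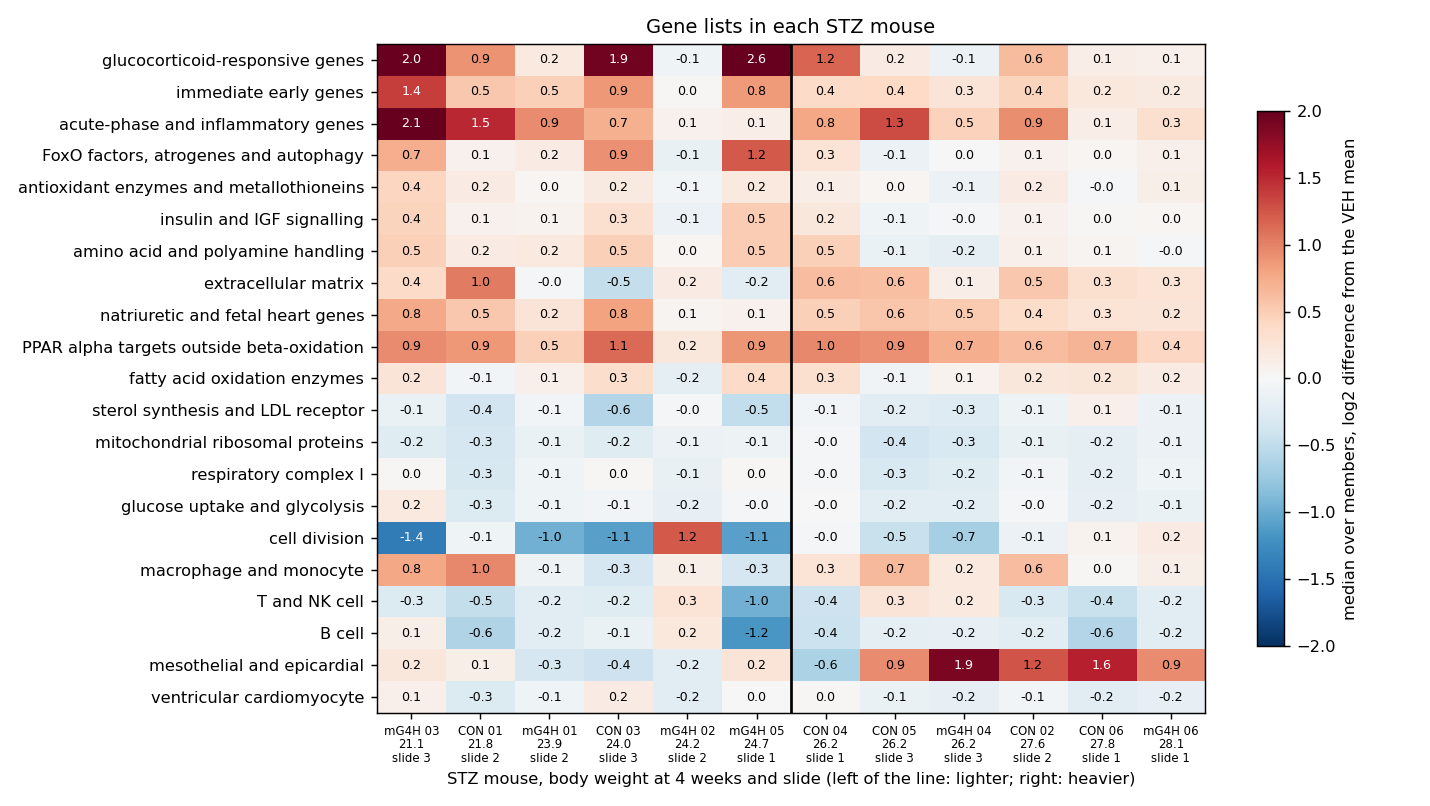
Median over each list's members of the log2 difference from the VEH mean (colour and number) in each of the 12 STZ mice, ordered by body weight from left to right, with lighter mice left of the line. Glucocorticoid-responsive genes reach 1.98, 1.93 and 2.64 in 3 lighter mice and -0.09 in another lighter mouse, while PPAR alpha targets are positive in all 12.

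Within the classes the response did not follow body weight step by step. For glucocorticoid-responsive genes the median difference from the VEH mean was 1.98 in mG4H STZ 03, 1.93 in CON STZ 03, 2.64 in mG4H STZ 05 and 0.90 in CON STZ 01, but 0.19 in mG4H STZ 01 and -0.09 in mG4H STZ 02. The highest value thus belonged to the mouse nearest the boundary, at 24.7, and the lowest lighter one to a mouse at 24.2. Among heavier mice CON STZ 04, at 26.2, had 1.16 and CON STZ 02 had 0.64, and the other 4 had -0.11 to 0.17. The 2 lighter CON mice had 0.90 and 1.93, and the 4 lighter mG4H mice ranged from -0.09 to 2.64. Blood glucose was 516 in mG4H STZ 01 and 504 in mG4H STZ 02. It was 500 in mG4H STZ 06, a heavier mouse with a list median of 0.10, and 600 or 601 in all other STZ mice. The heavier mice mG4H STZ 04, CON STZ 05 and CON STZ 06 read 601 and had -0.11, 0.17 and 0.14. A relation of this list to glucose was not tested.

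Body weight taken as a number gave no gene past the threshold. By limma the slope on weight called 0 genes among STZ mice (3004 at an unadjusted p under 0.05) and 0 among VEH mice (871). The difference between the slopes of STZ and VEH mice also called 0 (2743 unadjusted). The lighter against heavier difference was compared between genotypes by an interaction term, which called 0 genes (72 unadjusted), with 4 and 2 mice a class in mG4H and 2 and 4 in CON.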

How the data were processed

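Per the labels, ventricle RNA was Cy3-labelled for 1-colour Agilent arrays, 1 per mouse. The deposited spot intensity was extracted with Agilent Feature Extraction 10.5.1.1, per the file headers, which also place the probes on mm9; the submitters' processing notes also name limma. The processed intensity is background-subtracted and not scaled between arrays, per the file headers. From it, log2 values were taken, and the array's own 75th percentile (gene spots, log2) was subtracted. Probes well above background on 6 or more of the 12 STZ arrays were kept, 37589 of 55681. The brightest stood for its gene name, which left 27043 of 36413 genes, and 0.127% of values were missing. Signal in VEH mice played no part in this filter, so a gene dim in STZ mice and bright in VEH mice was left out. A gene bright in 1 weight class only could be kept through that class.

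Weight class with genotype as covariate was fitted with limma 3.58.1 in R 4.3.3 on 12 arrays; the comparisons with VEH used all 24. P-values are two-sided and adjusted by Benjamini-Hochberg over all genes, at 0.05. Because genotype is in the model, a difference is not the plain difference of means. The mice are separate animals. On simulated data for lighter against heavier mice (27043 genes), a log2 change of 1 was called for 54% of genes and of 2 for 86%, and 4.05% of calls were false; the simulation held no slide effect.

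The members and the 51 gene lists were chosen with earlier results of these data known. The text names the 12 genes in each direction with a symbol, well above background on all arrays of a class, past the threshold or of smallest p; up to 4 members of a list past the threshold, else the 2 of smallest p; and Slc2a4. Of the genes this rule names, 1 is not reported here. Other list members were named after their values were seen, among them Cdkn1a, Zbtb16, Lcn2, Nr3c1, Tsc22d3, Fbxo32, Trim63, Pdk4, Col15a1 and Msln. The replicate numbers did not pair the mice: deviations of same-numbered CON STZ and mG4H STZ mice correlated at 0.152, -0.0258, 0.505, -0.414, -0.606 and 0.681 for numbers 01 to 06. Alternatives were other scalings, background corrections and filters, slide and replicate blocks, array weights and leaving out mice. Python 3.11.15 drew the plots.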

Additional observations from a re-analysis of the deposited data

Results flagged for a closer look

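In groups of 6 mice, 52 sets of values were searched for a mouse far from the other 5, and 4 were found; chance gives about 1 in 20. Ankrd45 read -3.69 in mG4H STZ 02, the lowest of the lighter STZ mice, whose median was -3.21. Blood glucose was 500 in mG4H STZ 06, the other heavier STZ mice being at 600 or 601. Tmem100 read -0.01 in CON STZ 04, the highest of the heavier STZ mice, whose median was -0.69. Bmp8a read -3.22 in CON STZ 05, the highest of the heavier STZ mice, whose median was -3.56.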

How the results depend on the processing

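The comparison of lighter with heavier STZ mice called 0 genes under all alternatives tried except these: 296 within slide 1, where mG4H STZ 05 is the only lighter mouse, and 1205 in the added fit of all 24 arrays with slide as a block. That fit gave 1361 with quantile normalization, 130 with median scaling and 1513 with normexp. The slide block over 12 arrays, at 0, gave 3758 without CON STZ 02 and 6 without mG4H STZ 02. Without CON STZ 02, slide 2 held no heavier mouse, so the classes met only on slides 1 and 3. The lighter mice there are the 3 that stood apart. Why the other counts moved was not tested. With the replicate block, lighter against heavier stayed at 0, lighter against VEH had 2393 genes and heavier against VEH 255. Without the 3 mice that stood apart, lighter against VEH had 1668. Leaving out single mice gave 1846 (without CON STZ 03) to 6103 genes for lighter against VEH, and 112 (without mG4H STZ 04) to 882 (without mG4H STZ 03) for heavier against VEH, with 337, 341 and 361 without CON STZ 02, CON STZ 05 and mG4H STZ 06. For the 24 named genes, 861 values over 36 alternatives had the direction of the main value, 0 were reversed and 20 passed the threshold. Small list medians between lighter and heavier mice changed sign (in brackets, the other end of the range over single mice left out): PPAR alpha targets to 0.00 with quantile normalization and -0.02 without CON STZ 03 (0.20); mitochondrial ribosomal proteins to 0.02 with the slide block, 0.07 within mG4H and 0.03 without CON STZ 01 (-0.09); macrophage markers to 0.09 without CON STZ 03 and 0.03 without mG4H STZ 01 (-0.36). The median over all genes was 0.09, 0.00 with quantile normalization and -0.07 with median scaling, a shift by which every difference moves. A scan-day block was not run, since all STZ arrays share 1 scan day. The added alternatives were chosen after seeing the data.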

Other observations

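Cell division genes varied among lighter STZ mice more than between classes. Of 30 measured members 25 had a negative difference between lighter and heavier mice, with a median of -0.33 beside 0.09 over all genes. Against VEH mice 0 passed in lighter or heavier mice, beside 16.1% and 2.09% of all genes. The median difference from the VEH mean was -1.40 in mG4H STZ 03 and 1.22 in mG4H STZ 02, both lighter mice. Without the 3 mice that stood apart the list's median difference between lighter and heavier mice was 0.22.

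Interferon-stimulated and antigen presentation genes had a negative difference between lighter and heavier mice for 21 of 25 members, with a median of -0.19; 0 passed the test and 2 were lower at an unadjusted limma p under 0.05. Against VEH mice 1 was higher and 4 lower in lighter mice, and 2 higher and 0 lower in heavier mice. Over all genes the shares were 7.35 and 8.71% in lighter and 0.714 and 1.38% in heavier mice. With the 3 mice that stood apart left out, 1 was higher and 0 lower in lighter mice. Psmb9, a subunit of the immunoproteasome, fell by 0.69 in lighter mice (limma adjusted p = 0.00654) and differed by -0.11 in heavier mice (adjusted p = 1); it had -0.25 in lighter mice without the 3 (adjusted p = 0.254). The list's median between lighter and heavier mice was then 0.20. Genes of the integrated stress response were higher than in VEH mice for 5 of 24 members in lighter mice and 2 in heavier mice, beside 7.35% and 0.714% over all genes, and for 9 in lighter mice without the 3. Mthfd2, an enzyme of mitochondrial folate metabolism, rose by 1.21 in lighter and by 1.1 in heavier mice (limma adjusted p = 0.00165 and 0.0134).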
